A study of Rattus norvegicus with 2 samples.

Results

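H2Aub, histone H2A carrying ubiquitin, was mapped along rat chromosome 12 in ischemic myocardium, and 725 of the 17207 peaks in the list lay there (4.21%, 95% Wilson interval 3.92 to 4.52%). The members were all intervals that the list places on chromosome 12, with no filter on a measured value. The chromosome carries *Hspb1*, the gene of *Hsp27*, a small heat shock protein that the study followed. The paper counts this gene among upregulated genes with H2Aub occupancy in its ChIP-seq, so the choice of chromosome was not independent of such data. The peaks came from 1 chromatin immunoprecipitation sequencing (ChIP-seq) library made with an antibody against H2Aub, set against 1 input library of the same tissue sequenced without immunoprecipitation. The rats were male, and ischemia had been induced by 30 min of ligation of the left anterior descending coronary artery. Both libraries carried the replicate number 1. Neither the strain and age of the rats nor the number of hearts per library is given in the labels, and whole myocardium mixes cardiomyocytes with vascular, connective and immune cells. No sham library was analysed here, so the peaks describe ischemic tissue alone. Intervals of pileups are counting errors within this pair of libraries. Intervals of densities, ratios, shares and medians treat peaks or bins as independent, which neighbours are not, and are too narrow. No interval covers differences between replicates.

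Ubiquitin is attached to H2A mainly by polycomb repressive complex 1 (*PRC1*), whose catalytic subunit is *RING1B*. The mark is best known from silenced genes, above all from genes that control development, where it can spread over long domains. *PRC1* is drawn to CpG-rich sequence, and low levels of the mark also occur between such domains.

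The position of *Hspb1* in these coordinates could not be established, since the genome build of the list is not settled. In the GRCr8 gene table, used here only for names, gene order and last genes, *Hspb1* lay between *Ywhag* and *Srrm3* on chromosome 12. The last peak of chromosome 12 ended beyond the last gene of that table, and 7 of its peaks lay there. The last peak ended beyond the last gene on 9 of the 20 autosomes, chromosome 12 included. Sequence can continue past the last gene, so this does not show whether the builds match. As the build was not settled, the positions of the table were not otherwise combined with the peaks. No peak is therefore assigned to *Hspb1* or to any other gene, and peaks are given by position as in the list, counted from base 1. For the same reason no sequence of a peak is shown.

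Chromosome 12 was the shortest autosome by the span from its first to its last peak, 52.6 Mb, and was among the most densely marked. It held 13.8 peaks per Mb (exact 95% Poisson interval 12.8 to 14.8), against 6.55 on the other 19 autosomes together, which is 2.10 times as many (1.95 to 2.27). Chromosome 10, with 14.2 peaks per Mb (13.5 to 14.9), was not separated from it, whereas chromosomes 20 and 19 had 11.1 each (10.2 to 12.0 and 10.2 to 11.9). The peaks covered 335.5 kb, or 0.637% of the span, against 0.324% on the other autosomes. These intervals treat peaks as independent, which neighbours are not, and they are therefore too narrow. Chromosome 12 is a single unit beside 19 others, so its ranks are descriptions and no test between chromosomes was run.

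The higher density was present in every class of peak that was separated. A series of 5 or more peaks, each within 10 kb of the next, is called a run. Peaks in runs were 2.22 times as dense as on the other autosomes (1.95 to 2.51), and peaks outside runs 2.04 times (1.86 to 2.25). Peaks with no other peak within 10 kb were 2.09 times as dense (1.80 to 2.41), at 3.76 per Mb against 1.80, and this was the highest density of such peaks on any autosome. When each group of peaks at most 10 kb apart was counted once, chromosome 12 also ranked first, with 6.29 groups per Mb (5.63 to 7.01) against 5.75 on chromosome 10 (5.31 to 6.22). These intervals overlapped, so the order of both chromosomes was not resolved. A group held 2.19 peaks on average on chromosome 12, 2.46 on chromosome 10 and 2.16 on the other autosomes together.

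**Figure D1:**
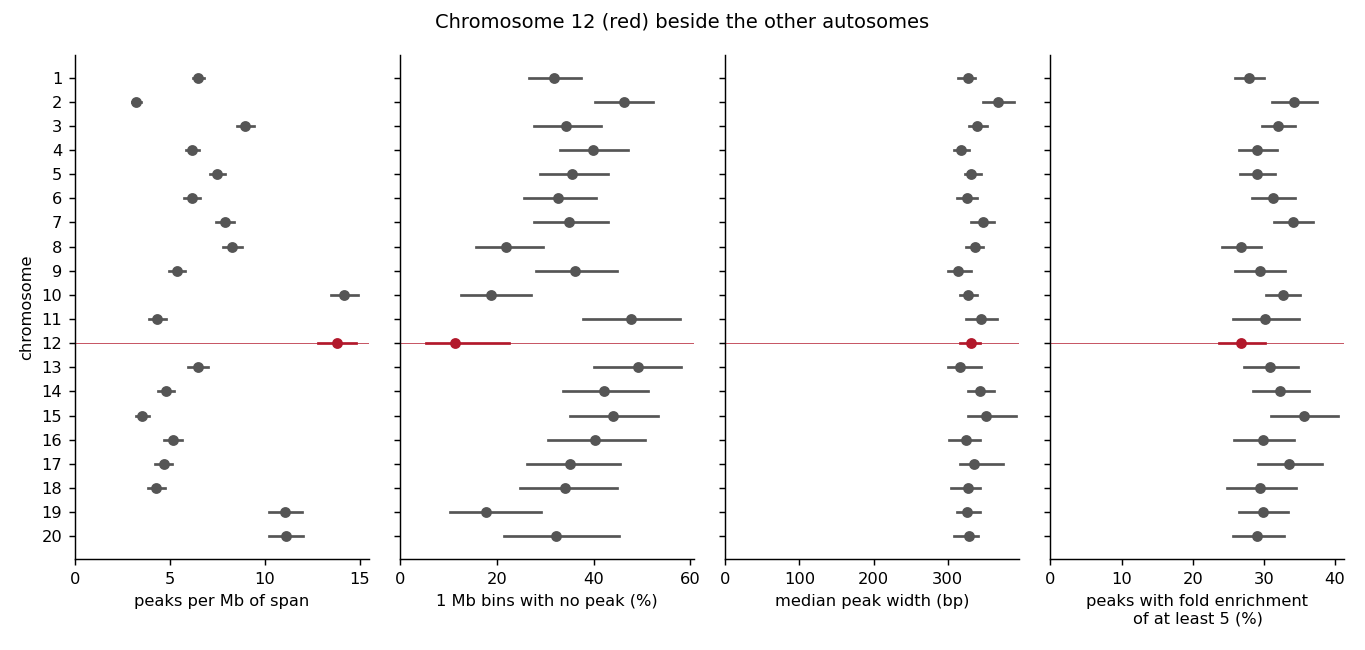
Each row is 1 autosome, with chromosome 12 in red, and the panels show peaks per Mb of span, the share of 1 Mb bins with no peak, the median peak width in bp, and the share of peaks with a fold enrichment of at least 5. Points are values and bars are 95% intervals (Poisson, Wilson, order statistics and Wilson). Chromosome 12 has the lowest share of empty bins, 11.3%, and a median width of 331 bp inside the range of the other autosomes, 314 to 367.5 bp.

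H2Aub peaks reached most of the chromosome, but unevenly. In fixed bins of 1 Mb from position 0, with each peak placed by its summit, 47 of the 53 bins held at least 1 peak. The share of empty bins, 11.3% (6 bins, 95% Wilson interval 5.29 to 22.6%), was the lowest of all autosomes, where the others ranged from 17.7% on chromosome 19 to 49.1% on chromosome 13. Unlike the span used for density, these bins include the sequence before the first peak. On chromosome 13 the first peak began only at 25212193, which raises its share of empty bins. The interval of chromosome 12 overlapped those of chromosomes 19 (10.2 to 29.0%) and 10 (12.6 to 27.0%). The median bin held 7 peaks, against 2 on the other autosomes and 9 on chromosome 10.

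Well-filled bins were common on chromosome 12. At least 20 peaks were found in 15 bins, 28.3% of the bins of chromosome 12, against 10.0% on the other autosomes and 24.1% on chromosome 10. At least 30 peaks were found in 11 bins, or 20.8%, where the next highest share was 14.3%, on chromosome 20. The highest count on chromosome 12, 50 peaks, was the fifteenth highest maximum among the 20 autosomes, and 31 of the 2549 bins elsewhere held more. Chromosome 12 also had the fewest bins, 53, and a maximum depends on their number. Its share of bins with at least 50 peaks, 3.77%, ranked 3 among the autosomes. With bins started at position 500000, its fullest bin held 66 peaks. Up to 147 peaks lay in a single bin of chromosome 19. Accordingly, the variance of the bin counts was 16.5 times their mean on chromosome 12 and 44.4 times on chromosome 19. The fullest bins that together held 50% of the peaks were 9 of 53, or 17.0%, which was the highest such share of any autosome, against 8.06% on chromosome 19 and 15.2% on chromosome 10.

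**Figure D2:**
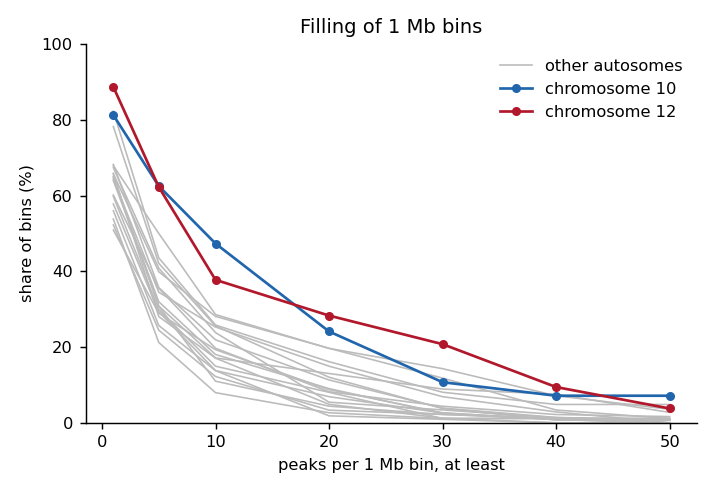
The share of 1 Mb bins, in percent, that held at least 1, 5, 10, 20, 30, 40 or 50 peaks is drawn for each autosome, with chromosome 12 in red, chromosome 10 in blue and the others in grey. Chromosome 12 is highest at 1, 20, 30 and 40 peaks, and chromosome 10 is highest at 5, 10 and 50 peaks.

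Along the chromosome, filled and sparse stretches alternated. The fullest bins were those from 17 to 18 Mb and from 51 to 52 Mb, with 50 peaks each (95% Poisson interval 37.1 to 65.9). They were followed by 42 to 43 Mb with 47 peaks, 16 to 17 Mb with 44 peaks and 41 to 42 Mb with 41 peaks. These 5 bins held 32.0% of the peaks. Their Poisson intervals all overlapped, so their order was not resolved.

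Bins with at least 20 peaks joined into 8 stretches. The longest were 41 to 44 Mb, with 122 peaks or 40.7 per bin, and 49 to 52 Mb, with 108 peaks or 36.0 per bin. The stretch from 16 to 18 Mb was the densest, with 47.0 peaks per bin. On the other side, 5 bins in a row from 26 to 31 Mb held 10 peaks in all, 4 bins from 32 to 36 Mb held 5 peaks, and 4 bins from 18 to 22 Mb held 6 peaks. No peak lay in the 3 bins from 3 to 6 Mb.

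**Figure D3:**
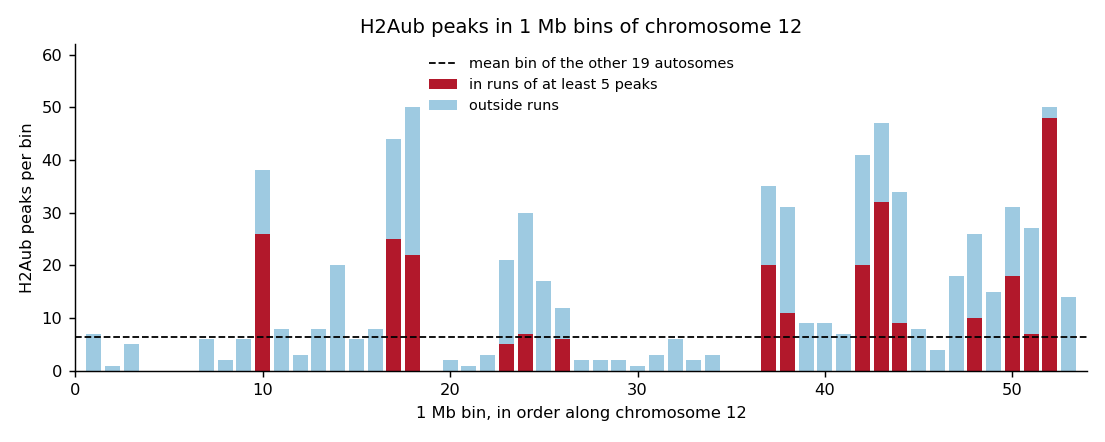
Bars give the number of H2Aub peaks in each of the 53 bins of 1 Mb in order along chromosome 12, split into peaks in runs of at least 5 peaks (red) and outside runs (blue), and the dashed line is the mean of 6.40 peaks per bin on the other 19 autosomes. Peaks in runs lie in 15 of the 53 bins, and 48 of the 50 peaks in the fifty-second bin are in runs.

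Of the 5 largest intervals without a peak, 2 bordered densely marked sequence on 1 side, and the others lay between sparsely marked stretches. The widest extended over 4.02 Mb, from 2581761 to 6597477, between a peak with a fold enrichment of 3.67 and a peak with 4.40, with 5 peaks within 1 Mb before it and 6 after it. Fold enrichment is the ChIP pileup over the local background at the summit of a peak. The second extended over 3.36 Mb, from 33130845 to 36492018. It ended at the peak with the highest fold enrichment on the chromosome, 10.7, and the 1 Mb from that summit held 55 peaks, whereas the 1 Mb up to the summit before the gap held 5 peaks. The third extended over 1.62 Mb, from 17972593 to 19595482, and followed directly on 52 peaks within 1 Mb, with 2 peaks within 1 Mb beyond it. The fourth was 1.55 Mb, from 28156251 to 29707208, with 3 peaks within 1 Mb before it and 2 after it. The fifth was 1.19 Mb, from 19599990 to 20787077, with 2 peaks before it and 1 after it. Together the 5 gaps made up 22.3% of the span. Whether sequence there can be mapped was not tested, as no genome of the build was used here.

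The second gap also separated stretches of unequal density, a boundary that was chosen after the gap had been seen. Before it, 319 peaks lay within 33.1 Mb, or 9.64 peaks per Mb (8.61 to 10.8). After it, 406 peaks lay within 16.2 Mb, or 25.1 peaks per Mb (22.7 to 27.6). Peaks beyond the gap were similar in strength and width, with a median fold enrichment of 4.46 against 4.55 and a median width of 325 against 338 bp. They were more often in runs, 43.1% against 28.5%. Since runs are defined by spacing, this share is not independent of the higher density there.

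The gaps between neighbouring peaks showed the same structure at a smaller scale. The median gap was 7.51 kb (95% interval of the median 5.60 to 9.75 kb), against 6.75 kb on the other autosomes (6.22 to 7.35 kb). Despite the higher density, close neighbours did not take a larger share of the gaps. Gaps of at most 1 kb made up 26.1% of the 724 gaps (23.0 to 29.4%), against 29.5% on the other autosomes and 31.8% on chromosome 10. Gaps of at most 10 kb made up 54.4%, against 53.9% elsewhere. The difference lay among the long gaps, as 15.3% exceeded 100 kb on chromosome 12 and 20.6% on the other autosomes, and the 75th percentile was 45.5 kb against 66.2 kb. The smallest gap was 150 bp, and no peaks overlapped.

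Runs were found 28 times on chromosome 12, or 0.532 per Mb (0.354 to 0.769), against 0.257 per Mb on the other autosomes. They held 266 peaks, 36.7% of the members (33.3 to 40.3%), a share close to the 34.8% on the other autosomes. The runs took up 716.1 kb, or 1.36% of the span, and lay in 15 bins. Their median size was 8.5 peaks and their median length 22.3 kb. Of the 28 runs, 17 held fewer than 10 peaks and 11 held at least 10. The highest number on chromosome 12 was 21 peaks, and 11 of the other 19 autosomes, all with longer spans, had a larger run. The largest run in the list, on another autosome, held 90 peaks.

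Of the 5 runs with the most peaks, 2 were neighbours. The run with 21 peaks, from 51080471 to 51144712, had a median fold enrichment of 4.40 and was 15.0% covered by peaks. The run with 19 peaks from 50997563 to 51060010 had a median fold enrichment of 4.77 and was 13.4% covered. Only 20.5 kb lay between these runs, and both consisted of narrow, scattered peaks of at most 1049 bp.

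The other 3 had a larger share of their length covered by peaks. The run from 42474465 to 42513332, also with 19 peaks, was 42.4% covered, and its median fold enrichment was 5.13. The run from 17132235 to 17195045 held 17 peaks, was 32.7% covered and had a median fold enrichment of 6.20. The run from 16113110 to 16157117 held 14 peaks, was 25.0% covered and had a median fold enrichment of 4.74. Coverage over all 28 runs ranged from 6.68 to 69.7%. The highest was in a short run from 16808853 to 16814991, where 6 peaks filled most of 6.14 kb and their median fold enrichment was 6.41.

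**Figure D4:**
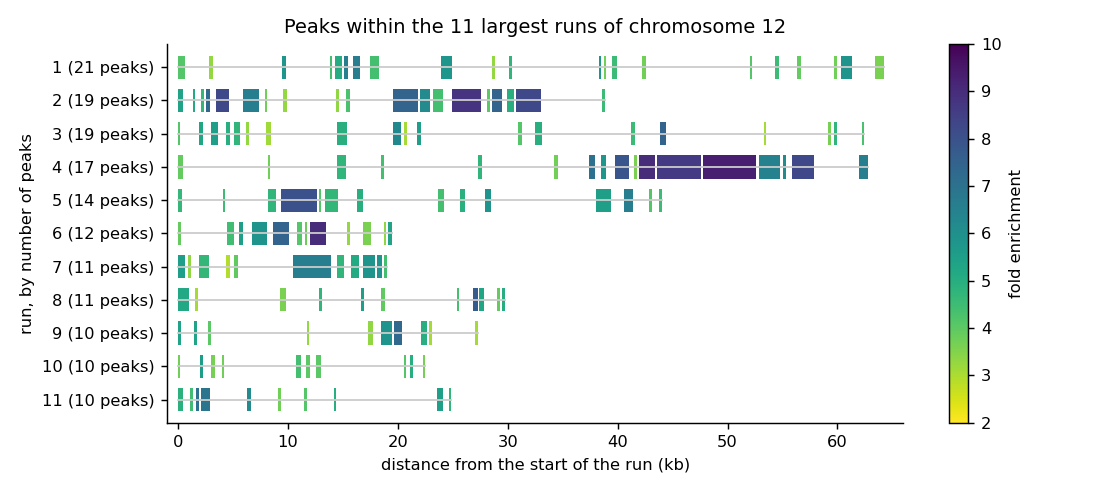
The 11 runs with at least 10 peaks are drawn to scale, with the distance from the start of each run in kb, each peak as a block and its fold enrichment as colour. The runs with 21 and 19 peaks at the top and in the third row consist of scattered narrow peaks, whereas the run in the fourth row has a stretch of wide peaks with fold enrichments of up to 9.31.

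The run from 17132235 to 17195045 held both of the widest peaks. The widest peak of the chromosome, from 17180036 to 17184852, measured 4817 bp, with a fold enrichment of 9.31 from 26 stacked fragments at the summit (exact 95% Poisson interval 17.0 to 38.1). Fragment numbers here and below were solved from the fold enrichment and p-value of each peak. The second widest, from 17175825 to 17179798, measured 3974 bp, with a fold enrichment of 8.68 from 20 fragments (12.2 to 30.9). Only 237 bp separated them. With all neighbours at gaps of at most 1 kb, they formed a block of 10 peaks from 17169644 to 17190143, of which 83.5% was covered and whose fold enrichments ranged from 3.62 to 9.31. This block is described because it surrounds the widest peak. The other 3 of the 5 widest peaks measured 3411 bp from 9463563 to 9466973, 3297 bp from 16122437 to 16125733, and 2680 bp from 42499358 to 42502037, and each of the 5 lay in a run.

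Broad peaks took a share of the members close to that elsewhere, and none was extreme in width. The maximum of 4817 bp ranked sixteenth among the 20 autosomes, and the widest autosomal peak, on chromosome 10, measured 10682 bp. The median width of 331 bp (316 to 344 bp) did not separate chromosome 12 from the other autosomes, with 332 bp (329 to 336 bp). At least 1000 bp were reached by 54 peaks, or 7.45% (5.75 to 9.59%), against 8.73% elsewhere (8.31 to 9.18%). Per length of chromosome they were denser, at 1.03 per Mb against 0.572, or 1.80 times (1.34 to 2.36), the second highest density of the autosomes. These few wide peaks contributed 26.0% of the covered length. The smallest width in the list, 200 bp, was shared by 93 peaks, or 12.8% (10.6 to 15.5%), which contributed 5.54%.

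Wider peaks had higher summits. The median fold enrichment was 4.13 at 200 bp, 4.27 from 201 to 499 bp, 4.96 from 500 to 999 bp and 6.23 from 1000 to 1999 bp. It was 8.27 in the 11 peaks of at least 2000 bp, of which 8 were in runs. Across the 725 peaks, which share libraries and are not replicates, Spearman's rho of width and fold enrichment was 0.397. It was 0.539 among peaks in runs and 0.284 among the others. A wider peak offers more positions at which a maximum can be found, and the part of this in the correlation was not tested.

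**Figure D5:**
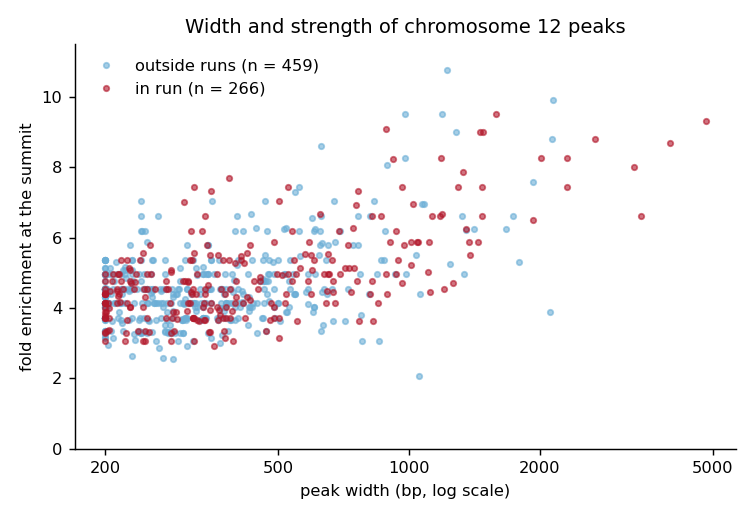
Each point is 1 of the 725 peaks of chromosome 12, with its width in bp on a log scale and its fold enrichment at the summit, in red for 266 peaks in runs and in blue for 459 peaks outside runs. Most peaks are under 500 bp, the points lie on a few repeated levels of fold enrichment, and 10 peaks reach a fold enrichment of at least 9.

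The high density was not accompanied by a larger share of strong peaks. The fold enrichment had a median of 4.55 on chromosome 12 (4.40 to 4.55) and on the other autosomes alike. Of the members, 194 peaks had a fold enrichment of 5 or more, or 26.8% (23.7 to 30.1%), which was the lowest share of all autosomes by a margin of hundredths over chromosome 8. On the other autosomes together it was 30.7% (30.0 to 31.4%), and on chromosome 10 it was 32.6% (30.4 to 35.0%). A q-value of at most 1e-05 was reached by 20.6% (17.8 to 23.6%), against 24.9% (24.3 to 25.6%) and on chromosome 10 27.1% (25.0 to 29.4%). Only 1 peak, or 0.138% (0.0244 to 0.777%), had a fold enrichment of at least 10, against 0.588% on the other autosomes (0.482 to 0.718%). The intervals overlapped, and the shares ranged from 0 on chromosomes 18 and 19 to 1.62% on chromosome 20. Consequently, the excess in density had a smaller point value among strong peaks. For a fold enrichment of at least 5 it was 1.83 times the other autosomes (1.58 to 2.12). For a q-value of at most 1e-05 it was 1.73 times (1.46 to 2.04). Both intervals overlapped that of all peaks (1.95 to 2.27), so this difference was not resolved. Chromosome 12 ranked 2 and 3 among the autosomes by the densities of these strong peaks.

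The number of peaks in a bin and their strength showed little rank correlation. Over the 33 bins with at least 5 peaks, Spearman's rho was -0.011 between the count and the median fold enrichment and 0.085 between the count and the median width. These bins share libraries and depth, and the correlations are given as descriptions. Over the whole chromosome, peaks in runs were wider and stronger than those outside runs. Their median width was 368 bp (339 to 399 bp) against 306 bp (291 to 331 bp) outside runs, and 12.8% (9.29 to 17.3%) against 4.36% (2.84 to 6.63%) were at least 1000 bp wide. The share with a fold enrichment of 5 or more was 34.6% in runs (29.1 to 40.5%), 22.2% outside (18.7 to 26.2%) and 16.2% among peaks with no neighbour within 10 kb (11.7 to 21.9%). The same order was present on the other autosomes, with 41.4%, 25.0% and 19.6%.

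The peak with the highest fold enrichment, 10.7, extended from 36492019 to 36493241, with 25 fragments at its summit (16.2 to 36.9) over a background of 1.42 fragments. The second, from 44173762 to 44175899, had a fold enrichment of 9.90 from 26 fragments (17.0 to 38.1). It lay in a bin of only 8 peaks. Next were 3 peaks with the same fold enrichment of 9.51 from 22 fragments each (13.8 to 33.3), from 17737647 to 17739227, from 24474361 to 24475341 and from 46920617 to 46921806. The intervals of these 5 pileups overlapped, so the order was not resolved at this depth. Only the peak from 17737647 to 17739227 lay in a run, and the other 4 lay outside runs.

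Ranking by −log10 q gave 4 of the 5 places to peaks already described. The first place went to another peak, from 9544904 to 9545535, with a −log10 q of 21.7. Its pileup of 75 fragments (59.0 to 94.0) was the highest on the chromosome, but its background of 16.1 fragments was 11.3 times the lowest background in the list (the floor), and its fold enrichment was 4.46. This was the only peak of chromosome 12 with a background over 10 times the floor, and without it 724 peaks remained with unchanged density to the first decimal.

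Input was raised at the start of the chromosome. Of the 7 peaks in the first 1 Mb, the first 5, from 53492 to 441465, had backgrounds of 7.94, 8.81, 9.50, 12.95 and 4.32 fragments, between 3.04 and 9.13 times the floor. Their pileups were 28, 28, 39, 28 and 18 fragments, and their fold enrichments ranged only from 2.08 to 3.81. The remaining 2 peaks of this bin were at the floor. On the whole chromosome 27 peaks, or 3.72%, had a background over 2 times the floor, against 5.47% on the other autosomes. What raised the input there was not tested.

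Across all peaks of the chromosome, the signal mostly rested on few fragments. The median summit on chromosome 12 held 11 fragments, and a single count of 11 has an exact 95% Poisson interval of 5.49 to 19.7. In 50.3% of peaks the background equalled its lowest value in the list, 1.42 fragments (46.7 to 54.0%) against 47.0% on the other autosomes. At this floor a peak with 8 fragments had a fold enrichment of 3.72, with 10 fragments 4.55 and with 12 fragments 5.37, and 75 members shared the value 4.55. The interval of 10 fragments, 4.80 to 18.4, corresponds to fold enrichments from 2.40 to 8.02. Differences between single peaks within this range were not detectable at this depth. When 3 fragments were removed from each summit, 38.9% of the members (35.4 to 42.5%) no longer reached the smallest −log10 p of the list, against 35.5% on the other autosomes (34.8 to 36.2%). The share was 32.0% in runs (26.6 to 37.8%) and 42.9% outside (38.5 to 47.5%).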

How the data were processed

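The authors deposited 1 peak list of the ChIP library in the narrowPeak layout, with a score, a fold enrichment (a linear ratio), the −log10 of a p-value and of a q-value for every peak. The deposited score was 10 times the −log10 q cut to a whole number. Per the submitters' processing notes, bcl2fastq 2.17, Trimmomatic 0.33, Bowtie 1.1.2 and MACS2 2.1.0 were used. The notes name the human build hg38, but the list holds 20 numbered chromosomes, X and 35 scaffolds with names of rat contigs, so no build was assigned.

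No read counts were given, so depth was recovered from the list. Whole-number pileups and backgrounds were solved from each fold enrichment, (pileup + 1) / (background + 1), and Poisson −log10 p, to within 0.002, for all 17207 peaks. The solver was tested on simulated data of 3000 peaks and recovered each pileup, and the search for runs, tested on 1167 simulated peaks, recovered all 977 that had been placed in runs. Fragments are not independent molecules, so intervals of pileups cover counting error only. The other intervals treat peaks or bins as independent and do not cover differences between replicates.

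Bins, gaps, runs and shares were computed in Python 3.11.15 with scipy 1.17.1. Intervals are exact Poisson for densities and pileups, Wilson for shares, order statistics for medians and exact binomial for ratios of densities, all at 95%. Named regions were the first 5 by bin count, run size, width, fold enrichment, −log10 q and gap, and the compact block and the raised input at the start were chosen after their values were seen. The members and all definitions were chosen with earlier results of these data known. Peak sequence, CpG content and genes were not analysed here.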

Additional observations from a re-analysis of the deposited data

How the results depend on the processing

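In each of the 8 alternatives that bear on density, chromosome 12 stayed denser than the other autosomes together, by 1.54 to 2.21 times. Chromosome 10 stayed denser than chromosome 12 under each filter on peaks, but not after merging. A density, ratio, share or median is taken as moved when it left its 95% interval, and a count when it changed by over 1.5 times. The median pileup was set against the interval of a single count, which is wide. Of 75 values, 29 kept within these limits and 46 moved, mostly because fewer peaks entered.

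At q of at most 0.001, 452 peaks were left (8.59 per Mb), with a median width of 373 bp, gap of 13.6 kb and fold enrichment of 4.96, and 17 runs with 29.4% of peaks. At q of at most 1e-05, 149 peaks were left (2.83 per Mb, 1.73 times the other autosomes), with 15 in the densest bin, 35.8% of bins empty, a width of 672 bp, a gap of 59.7 kb, a fold enrichment of 6.20, and 4 runs with 16.8%. At a fold enrichment of at least 5, 194 peaks were left (3.69 per Mb, 1.83 times), with 19 in the densest bin, 32.1% of bins empty, a width of 568 bp, a gap of 41.1 kb, a fold enrichment of 5.87, and 7 runs with 20.6%. After removal of 3 fragments, 443 peaks were left (8.42 per Mb), with 375 bp, 13.9 kb and 4.96, and 17 runs with 28.7%. Merging within 1000 bp gave 10.2 intervals per Mb, the highest of all autosomes, with 350 bp, 20.3 kb, and 16 runs with 21.8%. Without the peak of high background, 724 of the 725 peaks were left, so little could move, and nothing did.

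With only bins that held a peak as length, the density was 15.4 per Mb and the ratio 1.54. In bins of 0.5 Mb, 24.5% were empty. Run gaps of 5 and 20 kb placed 23.3% and 45.9% of peaks in runs, and runs of at least 3 or 10 peaks numbered 66 and 11. Without the pseudocount the median pileup was 16 fragments, but only 2 of the 725 peaks could be solved. This value was counted as kept, which says little with so few peaks solved.

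A typical summit rests on 11 fragments, which limits single peaks. No paired analysis was possible because 1 ChIP library was set against 1 input library, and no replicate could be left out. CpG content could not be computed without a genome of the build.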
